A study of Mus musculus with 2 samples.

Results

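The 10 genes described here carry the Hedgehog and PTHrP signals of the growing skeleton: the ligand genes Ihh, Shh and Pthlh, the receptor and inhibitor genes Ptch1, Smo, Hhip and Pth1r, and the transcription factor genes Gli1, Gli2 and Gli3. They were chosen by name, and are 10 of 21911 protein-coding genes on the nuclear chromosomes of the GENCODE M21 annotation (mouse genome GRCm38). CG methylation was measured by whole genome bisulfite sequencing (WGBS) in primary osteoblasts, the bone-forming cells, taken from the skull vault of 3-day-old C57BL/6 mice and cultured for 3 days. The study had 1 library from wild type mice (WT) and 1 library from mice in which Prx1-Cre removed floxed Tet1, Tet2 and Tet3 (TCKO, each of the 3 genes fl/fl, together with Prx1-Cre). Prx1-Cre is a Cre recombinase driven by an early limb and skull mesenchyme promoter, so cells of other origin in the culture keep the Tet genes. The number of mice behind each library, and whether the WT mice carried floxed alleles, are not given in the sources used here. With 1 library per genotype no difference has a replicate check, and each Fisher exact test compares the reads of the 2 libraries, not the genotypes. In bulk cells, partial methylation of all cells and full methylation of some cells cannot be told apart.

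In skeletal growth, Indian hedgehog (Ihh) and parathyroid hormone-related protein (PTHrP, encoded by Pthlh) form a feedback loop that sets the pace of cartilage maturation. Hedgehog ligands bind Patched (Ptch1), which otherwise silences Smoothened (Smo), and active Smoothened lets the GLI factors turn on target genes, among them Ptch1, Hhip and Gli1 themselves. TET enzymes oxidise 5-methylcytosine (5mC) as a step in its removal, and bisulfite sequencing reads 5mC and its first oxidation product 5hmC alike. The comparison asks where CG methylation at these genes differs once the 3 Tet genes are deleted.

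Across the 10 genes and 25 kb on either side, 57 of the 1221 stretches (bins) of 200 bp with enough calls to test, or 4.67%, were at least 40 percentage points more methylated in TCKO, against 2.92% of such bins over the genome. Gli3 held 28 of the 57 and Gli2 11. Only 31 of the 1221 bins lay within 2 kb of a member's start, and 0 of these gained, which allows a share of up to 9.68%. Over the genome 2.95% of bins within 2 kb of a gene start gained, so 0 of 31 could not be told from that share. Within 500 bp of the start, methylation was at most 11.8% in both libraries at each gene except Pth1r. Pthlh was the only gene whose 4 kb window around the start was higher by at least 10 points both with all calls pooled and within matched cytosines. At Ihh and Gli1 neither the start window nor the gene body passed the test.

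Bins of 200 bp were counted as gains or losses when the exact Fisher test, adjusted over all testable bins of the genome by Benjamini-Hochberg, gave a p below 0.05 and the level moved by at least 40 points. Only bins in which 4 or more CG cytosines had a call, and in which both libraries averaged 4 or more reads over them, were tested. The 10 loci spanned 1235607 bp, and 1221 of their 6187 bins (19.7%) were testable. The genome had 2487317 testable bins. The 10 loci had 0 losses beside the 57 gains (1 loss, at Gli3, with the bin grid shifted by 100 bp), which allows a share of up to 0.246%, and the share over the genome was 0.0354%. The members' gains are thus read against a genome in which gains are common and losses are rare.

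The gains were spread unevenly. At Gli3, 28 of 414 testable bins (6.76%) gained, and at Gli2 11 of 151 (7.28%). Smo had 4 of 83 (4.82%), Pth1r 2 of 43 (4.65%), Hhip 6 of 175 (3.43%), Pthlh 2 of 65 (3.08%) and Ptch1 4 of 151 (2.65%), the last a share below that of the genome. With the bin grid shifted by 100 bp, Hhip had 3 of 160 (1.88%), Pth1r 0 of 43 and Ptch1 4 of 135 (2.96%), against 2.92% over the genome. The side of the genome's share on which Hhip, Pth1r and Ptch1 fell thus depended on the grid. Gli3, Gli2, Smo and Pthlh stayed above that share on both grids, but Smo and Pthlh did not under every other setting. Smo had 4 of 160 (2.5%) with at least 1 read per cytosine, against 2.65% over the genome. Pthlh had 1 of 39 (2.56%) with a flank of 10 kb, against 2.92%. Ihh had 0 of 50, Gli1 0 of 54 and Shh 0 of 35, which allow shares of up to 6%, 5.56% and 8.57%. These limits cover counting error only and reach past the genome's share, so at this depth a share like that of the genome could not be told from 0 at these 3 loci. With bins of 1 read or more per cytosine, 1 of 130 gained at Ihh, 1 of 115 at Shh and 2 of 166 at Gli1. Each share was below the 2.65% over the genome at that setting. With at least 10 reads per cytosine the share at Gli3 was 2 of 95 (2.11%) and at Gli2 2 of 19 (10.5%), against 1.94% over the genome, so the higher share of Gli3 was not seen in the deepest bins.

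Of the 57 gains, 52 lay in introns, 4 were intergenic and 1 overlapped an exon, at the 3′ end of Hhip. Introns also held 807 of the 1221 testable bins (66.1%), of which 6.44% gained, against 3.3% of intronic bins over the genome. Of the 301 intergenic bins 1.33% gained, against 2.65% over the genome, and of the 113 that overlapped an exon 0.885%, against 2.44%. Over the genome, bins within 2 kb of a gene start gained at 2.95%, much like all bins. The gains formed 50 separate stretches, 48 of the bins lay within the member gene (as did 756 of the 1221 testable bins), and the median distance to its start was 63866 bp. The levels, which chose these bins and are given as a description, had medians of 31.3% (WT) and 84.4% (TCKO). The median number of calls behind a level was 40 (WT) and 36 (TCKO), and 43 of them stood at or above 80% in TCKO. Just inside the threshold were bins of Smo (40.5 points) and Ptch1 (40.6 points), and just outside it bins of Gli2 (39.3 points) and Pthlh (39.8 points). When each cytosine was compared only with itself, a check chosen after seeing the data, 56 of the 57 bins still differed by at least 40 points and the lowest was 39.5 points.

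For each member with a gain, the bin with the largest difference outside exons is shown, since these stretches carry the finding. They are plus-strand GRCm38 sequences from RefSeq, 5′ to 3′. Each CG dinucleotide that lies whole in the bin, a site of the measured methylation, is in capitals. The Pthlh bin had 5 CG cytosines with calls but shows 2 whole CGs, since a CG cut by the bin edge is not marked.
Pthlh chr6:147261601-147261800: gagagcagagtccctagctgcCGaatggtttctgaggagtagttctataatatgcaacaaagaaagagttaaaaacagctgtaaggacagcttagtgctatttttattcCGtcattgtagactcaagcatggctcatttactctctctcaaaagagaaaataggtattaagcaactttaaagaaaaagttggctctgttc
Ptch1 chr13:63560401-63560600: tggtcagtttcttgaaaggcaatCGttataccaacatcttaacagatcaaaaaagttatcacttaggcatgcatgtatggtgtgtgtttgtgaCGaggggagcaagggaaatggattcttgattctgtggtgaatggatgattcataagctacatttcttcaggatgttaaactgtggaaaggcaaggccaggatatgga
Smo chr6:29783801-29784000: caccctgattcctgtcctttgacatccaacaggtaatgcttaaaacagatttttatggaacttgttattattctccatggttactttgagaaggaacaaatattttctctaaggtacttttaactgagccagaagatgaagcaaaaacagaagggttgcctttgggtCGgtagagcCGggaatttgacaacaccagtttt
Hhip chr8:80004001-80004200: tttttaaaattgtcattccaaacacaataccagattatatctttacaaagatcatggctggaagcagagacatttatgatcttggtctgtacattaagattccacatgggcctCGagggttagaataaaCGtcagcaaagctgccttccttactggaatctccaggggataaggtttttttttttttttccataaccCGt
Pth1r chr9:110750401-110750600: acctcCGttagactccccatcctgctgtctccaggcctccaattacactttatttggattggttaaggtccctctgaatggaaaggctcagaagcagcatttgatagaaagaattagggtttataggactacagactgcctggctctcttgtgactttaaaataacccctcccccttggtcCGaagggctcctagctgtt
Gli2 chr1:118907601-118907800: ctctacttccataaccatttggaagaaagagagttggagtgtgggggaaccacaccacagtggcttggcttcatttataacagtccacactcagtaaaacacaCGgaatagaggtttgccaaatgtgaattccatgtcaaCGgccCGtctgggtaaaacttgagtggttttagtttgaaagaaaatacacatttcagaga
Gli3 chr13:15498401-15498600: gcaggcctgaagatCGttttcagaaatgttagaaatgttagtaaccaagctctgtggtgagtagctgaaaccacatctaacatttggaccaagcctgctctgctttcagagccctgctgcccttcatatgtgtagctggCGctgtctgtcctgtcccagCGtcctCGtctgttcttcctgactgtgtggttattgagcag
The Gli3 stretch, in an intron 35266 bp downstream of the start, was methylated in 2.38% of 42 calls in WT and 87.8% of 41 calls in TCKO. The Gli2 stretch, in an intron 145918 bp from the start, went from 14.6% of 41 calls to 91.7% of 36. The Hhip stretch stood at 3.03% of 66 calls in WT and 64.2% of 53 in TCKO. These 3 stretches were mostly unmethylated in WT.

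The Pthlh stretch lay in an intron 2482 bp downstream of the start and stood at 13.6% of 44 calls in WT and 73.9% of 46 in TCKO. The Ptch1 stretch, in an intron, stood at 36.7% of 30 calls and 88.9% of 27. The other pair lay in neighbouring genes. The Smo stretch was in an intron of Ahcyl2, at 37.1% of 35 calls in WT and 100% of 24 in TCKO, and the Pth1r stretch in an intron of Myl3, a myosin light chain gene, at 25% of 24 calls and 82.4% of 17. Each of the 2 Pth1r gains lay in Myl3, so 0 lay inside Pth1r itself.

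Gli3, whose protein acts mainly as the repressor of the pathway, held the steepest contrasts. A bin at chr13:15442201-15442400, in an intron of the upstream gene Gm6556, stood at 6.85% of 73 calls in WT and 87.9% of 66 in TCKO. A bin at chr13:15743001-15743200, downstream of Gli3 and intergenic, stood at 1.79% of 56 calls and 81.4% of 43. A bin at chr13:15514201-15514400, in an intron, stood at 5.56% of 54 calls and 86.0% of 43. Each of these bins was below 10% in WT and above 80% in TCKO.

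At Gli2, an activator of the pathway, a bin at chr1:118953201-118953400 stood at 14.8% of 81 calls in WT and 85.7% of 105 in TCKO, and another at chr1:118900601-118900800 at 21.4% of 103 calls and 90.1% of 101. In Smo, a bin 8798 bp into the gene stood at 3.77% of 53 calls and 58% of 50. In Hhip, which encodes a membrane protein that binds and holds Hedgehog ligands, 3 adjacent bins at chr8:80020601-80021200 stood at 35.3%, 35.9% and 34.6% in WT and 91.3%, 81.3% and 84.6% in TCKO.

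**Figure D1:**
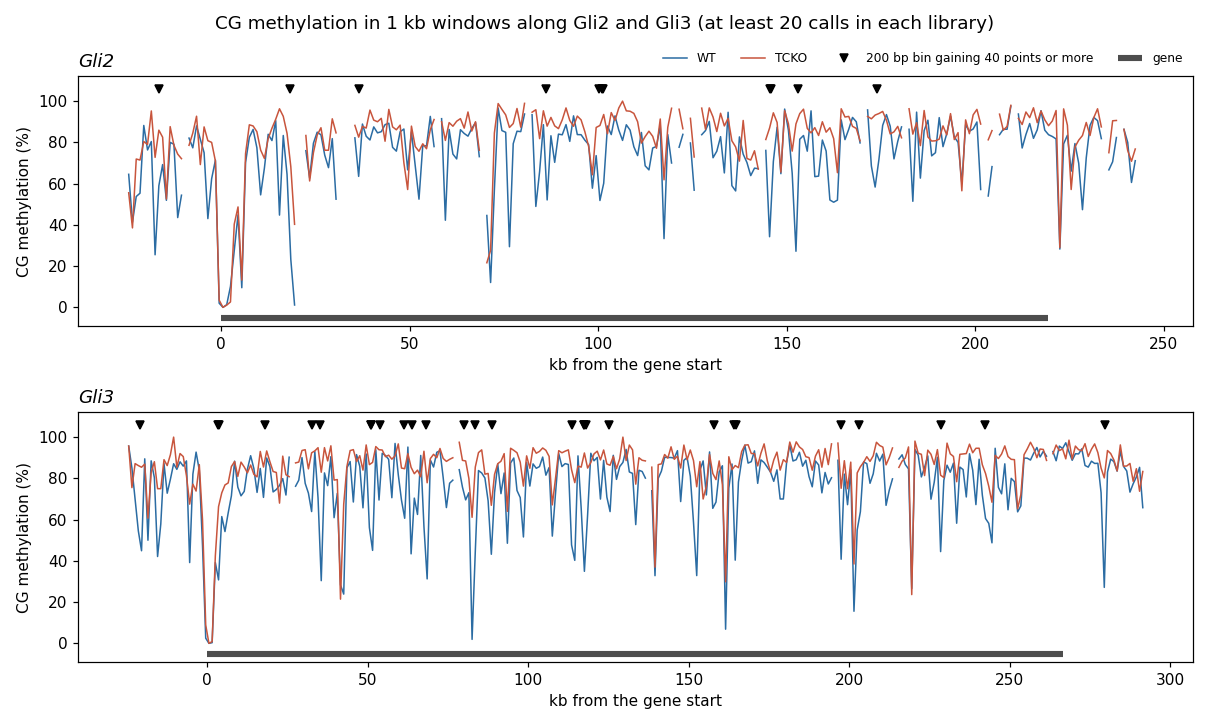
CG methylation (percent of calls, vertical axis) in 1 kb windows along Gli2 (upper panel) and Gli3 (lower panel), against the distance from the gene start in kb, for WT (blue) and TCKO (red); windows with under 20 calls in either library are not drawn, black triangles mark the 11 and 28 gains, and the grey bar is the gene. The WT line dips at many intronic positions where the TCKO line stays high, while both lines fall to the floor at the start.

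Along whole loci in 1 kb windows with at least 20 calls in each library, TCKO was higher in 261 of 311 windows at Gli3, 192 of 249 at Gli2, 104 of 139 at Hhip and 94 of 113 at Ptch1. The counts were 58 of 70 at Smo, 58 of 71 at Pth1r and 50 of 58 at Pthlh. At Ihh they were 35 of 55, at Gli1 35 of 59 and at Shh 32 of 45. As shares they ran from 59.3% at Gli1 to 86.2% at Pthlh, with 83.9% at Gli3, against 71.5% of 2325730 such windows over the genome. The median difference over windows was 9.94 points at Pthlh and 9.68 at Pth1r, and 3.13 at Ihh, 2.31 at Shh and 2.29 at Gli1, against 4.71 over the genome. At Shh 11 windows were below 20% in WT and each of the 11 was still below 20% in TCKO, and this held for 6 of 6 at Ihh, 5 of 5 at Smo and 1 of 1 at Pthlh. It held for 7 of 8 at Ptch1, 6 of 7 at Gli1, 5 of 7 at Gli2, 3 of 6 at Gli3, 2 of 5 at Pth1r and 1 of 2 at Hhip, against 57.8% of such windows over the genome. At Gli3, 3 of these windows were at least 20 points higher in TCKO, at Gli2, Hhip and Pth1r 1 each, and at the other members 0, against 28.1% over the genome. The Gli3 window centred 82500 bp into the gene stood at 1.92% of 52 calls in WT and 61.1% of 36 in TCKO.

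Bins with little methylation in WT were then split by their distance to a gene start. Of the testable bins at or below 20% in WT, 24 lay within 2 kb of a gene start in the 10 loci and 0 of them gained 40 points, which allows a share of up to 12.5%. Over the genome 6.8% of such bins gained. Of the 45 low bins farther from a start, 17 gained, against 44.6% of such bins over the genome. By locus these were 10 of 14 at Gli3, 3 of 3 at Gli2, 2 of 3 at Pthlh, 1 of 1 at Hhip and 1 of 3 at Smo. The 12 such bins at Ptch1 gave 0 gains, as did the 4 at Gli1, the 3 at Shh, and 1 each at Ihh and Pth1r. The share in the 10 loci was not above that of the genome on either side of the 2 kb limit.

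**Figure D2:**
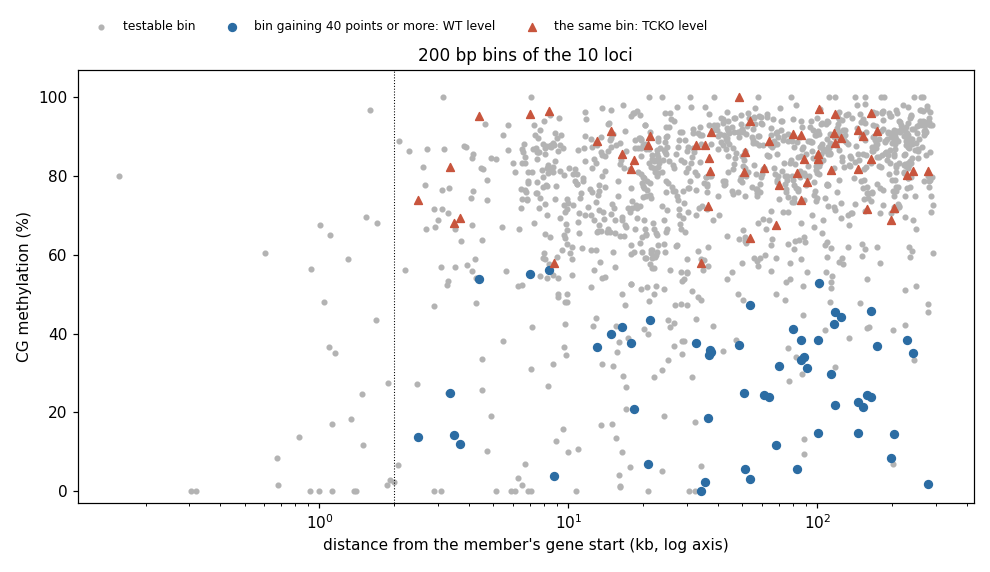
CG methylation (percent of calls, vertical axis) of the 1221 testable 200 bp bins of the 10 loci against their distance from the member's start in kb (log axis, dotted line at 2 kb); grey points are the WT levels of bins that were not gains, and blue circles and red triangles are the WT and TCKO levels of the 57 gains. No gain lies left of the dotted line, and the bins there that are near 0% in WT stay grey.

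The short strings bound by several transcription factors were searched on both strands of each bin, as letters only. AACCACA, the RUNX string, was in 7 of the 57 gains (12.3%), against 5.04% of all testable bins and 9.03% of all gains. TGACTCA, the AP-1 string, was in 6 (10.5%), against 3.03% and 8.57%, and CATTCCA, the TEAD string, in 4 (7.02%), against 3.21% and 5.58%. The shown Gli2 and Gli3 stretches each held the RUNX string. These counts are small and untested.

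GACCACCCA, the string bound by GLI factors, was in 1 of the 57 gains, the Hhip bin at chr8:80020801-80021000, and in 0.0943% of testable bins. It was in the 4 kb start window of 1 of the 10 genes, Ptch1, 129 bp downstream of the start of the gene record, and in 3.41% of all start windows. Both are shown with 10 bases on either side, 5′ to 3′ on the strand of the string, with the string in capitals, because the pair had unlike levels.
Hhip intron, chr8:80020813-80020821, plus strand: tgcctcattcGACCACCCAcgagggcagc
Ptch1 start, chr13:63573465-63573473, minus strand: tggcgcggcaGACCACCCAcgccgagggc
Methylation of the Hhip bin was 35.9% of 64 calls in WT and 81.3% of 64 in TCKO. Over the 209 bp around the Ptch1 string it was 0% of 117 calls (95% Wilson interval up to 3.18%) and 0% of 36 calls (up to 9.64%). A string match is a description and does not show that a factor binds.

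Start windows of 2 kb on either side of the transcription start site (TSS) were tested for all genes with at least 20 calls in each library, and called with an adjusted p below 0.05 and a difference of at least 10 points. Of the 10 genes 3 were called higher in TCKO (Pthlh, Smo and Gli3) and 0 lower, against 23.6% of 21856 genes called higher and 1.43% called lower. The median difference was 4.91 points for the 10 and 4.71 for all genes tested. The median WT level was 15.7% for the 10 and 45.3% for all. Intervals below are 95% Wilson intervals for a level and Newcombe intervals for a difference, and cover counting error only, since calls on 1 read are not independent.

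Pooled differences mix levels with where the calls fall, so each difference was also taken within cytosines covered in both libraries, an alternative chosen after seeing the data. By it 1 of the 10 genes was higher by at least 10 points, against 18.9% of all genes, and the median difference was 3.49 points for the 10 and 4.80 for all. Both values are given for the called genes.

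Pthlh (chromosome 6, 147252101 to 147264183, minus strand), which encodes the PTHrP ligand, stood at 20.7% (17.7 to 24.0) of 628 calls in WT and 45.1% (41.3 to 48.9) of 659 in TCKO. The difference was 24.4 points (19.3 to 29.2; Fisher exact test, adjusted p = 1.71e-18), and 20.5 points (15.7 to 25.4) within cytosines. The rise lay on either side of the CG-rich start. From 2 kb to 1 kb upstream the level was 26.1% and 58.9%, and from 1 kb to 2 kb downstream 34.8% and 66.2%. In the first 1 kb downstream it was 0% of 230 calls and 0% of 149. In a window from 1 kb upstream to 100 bp downstream the pooled difference was -11.0 points, where the 1 kb upstream held only 30 calls in WT and 74 in TCKO.

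Ihh (chromosome 1, 74945315 to 74951672, minus strand), the Hedgehog ligand of prehypertrophic cartilage, stood at 9.42% of 690 calls in WT and 9.04% of 664 in TCKO, a difference of -0.38 points (-3.49 to 2.73). Shh (chromosome 5, 28456815 to 28467256, minus strand), the Hedgehog ligand that patterns the limb, stood at 7.93% of 492 calls and 7.69% of 390, a difference of -0.23 points (-3.77 to 3.48). At both ligands the intervals of WT and TCKO overlapped, and within cytosines the differences were 2.23 points (-0.96 to 5.43) and 0.21 points (-2.92 to 3.35).

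Among the receptors, Smo (chromosome 6, 29735503 to 29761365, plus strand) stood at 23.8% (21.01 to 26.85) of 815 calls in WT and 37.5% (33.9 to 41.1) of 686 in TCKO. The pooled difference was 13.7 points (9.0 to 18.3; Fisher exact test, adjusted p = 1.61e-07), but within cytosines it was 3.74 points (0.46 to 7.02). The pooled value exceeded that of each of the 4 parts of 1 kb, which were 3.05, 12.6, 0.87 and 2.75 points from upstream to downstream. The weakly methylated part from 1 kb to 2 kb downstream held 346 calls in WT and 230 in TCKO. The call for Smo thus rests on pooling, and its change within cytosines was below 10 points.

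Ptch1 (chromosome 13, 63508328 to 63573598, minus strand), the Hedgehog receptor, stood at 14.5% of 572 calls and 22.9% of 393, 8.39 points (3.41 to 13.5; Fisher exact test, adjusted p = 0.0043) pooled and 6.66 points (1.83 to 11.5) within cytosines. It passed the test but not the 10 points, and its parts went both ways, from 30.5% to 15.0% in the 1 kb upstream and from 6.25% to 22.9% between 1 kb and 2 kb downstream. This window lay at the start of the gene record, while the protein-coding starts of Ptch1 in the basic GENCODE annotation lay farther downstream. At the principal transcript start of Ptch1, 7863 bp downstream, the window difference was -0.25 points. Hhip (chromosome 8, 79965851 to 80058006, minus strand) stood at 24.6% of 553 calls and 27.7% of 447, 3.15 points (-2.30 to 8.65). Pth1r (chromosome 9, 110722085 to 110747145, minus strand), the receptor of PTHrP and parathyroid hormone, stood at 71.4% of 332 calls and 78.0% of 246, 6.66 points (-0.57 to 13.6; Fisher exact test, adjusted p = 0.159). Neither Hhip nor Pth1r passed the test, and within cytosines they were 3.24 points (-0.78 to 7.26) and 7.91 points (0.89 to 14.9) higher in TCKO.

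Of the transcription factors, Gli3 (chromosome 13, 15463235 to 15730026, plus strand) stood at 10.2% (8.3 to 12.5) of 811 calls in WT and 21.2% (17.8 to 24.9) of 501 in TCKO. The pooled difference was 10.9 points (6.9 to 15.2; Fisher exact test, adjusted p = 9.00e-07), and 8.79 points (5.08 to 12.5) within cytosines, under the minimum of 10. From 2 kb to 1 kb upstream the level was 47.6% and 59.9%. Gli2 (chromosome 1, 118834132 to 119053619, minus strand) stood at 6.69% of 1210 calls and 7.43% of 1009, 0.74 points (-1.39 to 2.93). Gli1 (chromosome 10, 127329882 to 127341974, minus strand), a target gene as well as an effector, stood at 16.8% of 701 calls and 17.8% of 511, 0.98 points (-3.28 to 5.37).

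**Figure D3:**
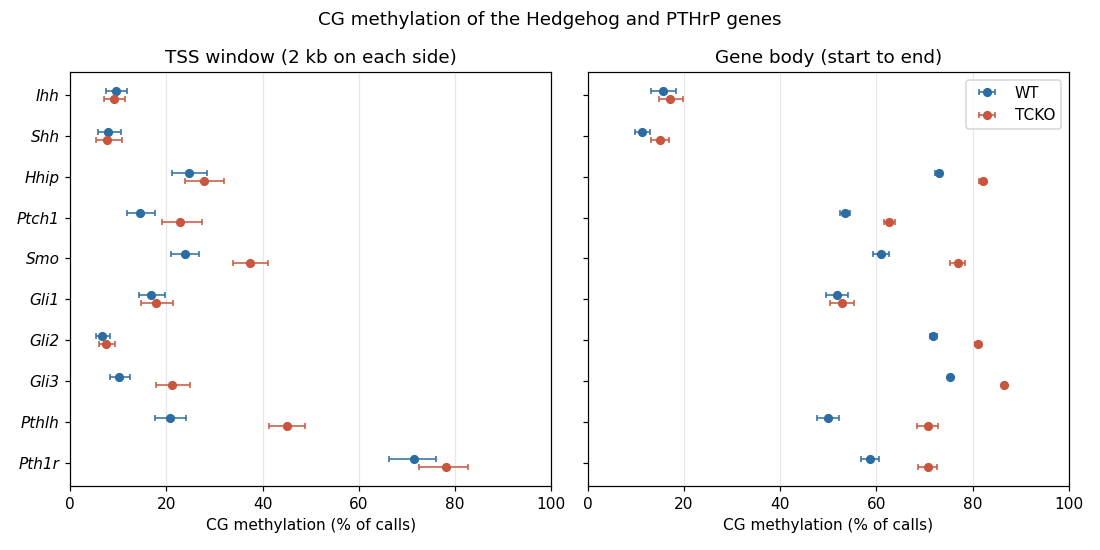
CG methylation (percent of calls, horizontal axis) of the 10 genes in WT (blue) and TCKO (red), in the window of 2 kb on each side of the start (left) and over the gene body (right); points are pooled levels and bars 95% Wilson intervals, which cover counting error only. Pthlh shows the largest separation in the left panel (20.7% and 45.1%) and in the right (49.9% and 70.7%), and the Ihh and Gli1 bars overlap in both.

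Closer to the starts the levels were low in both libraries. Within 500 bp the level was 0% in both at Gli1 (209 and 124 calls), Gli2 (251 and 171) and Gli3 (191 and 111). It was 0.63% and 1.40% at Ihh, 0.43% and 0.57% at Hhip, 0.82% and 2.61% at Ptch1, 2.22% and 5.69% at Shh, and 7.14% and 4.65% at Pthlh. At Smo it was 9.68% of 31 calls and 11.8% of 34, and 0 calls fell within 100 bp of its start in either library, so the Smo start itself was not measured. Within 100 bp of the Pthlh start 0 calls fell in WT and 33 in TCKO, so that start was not measured in WT. The 500 bp just upstream of it stood at 39.1% of 23 calls in WT and 12% of 50 in TCKO. None of the 10 genes was called in the window of 500 bp on each side, against 7.74% of all genes.

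Pth1r stood apart only at the start of its gene record, where 16 CpGs within 500 bp stood at 77.4% of 124 calls and 75.5% of 94. Its annotated internal starts, 3459 bp and 4426 bp downstream, were CG-rich and stood at 4.04% and 5.56%, and at 0% and 0.68%. The protein-coding starts of Ptch1 in the basic GENCODE annotation lay 7863 bp and 9063 bp downstream of the gene record's start. They stood at 0% and 0.90%, and at 0.78% and 0%. These downstream starts of both genes were thus low in WT and TCKO alike.

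**Figure D4:**
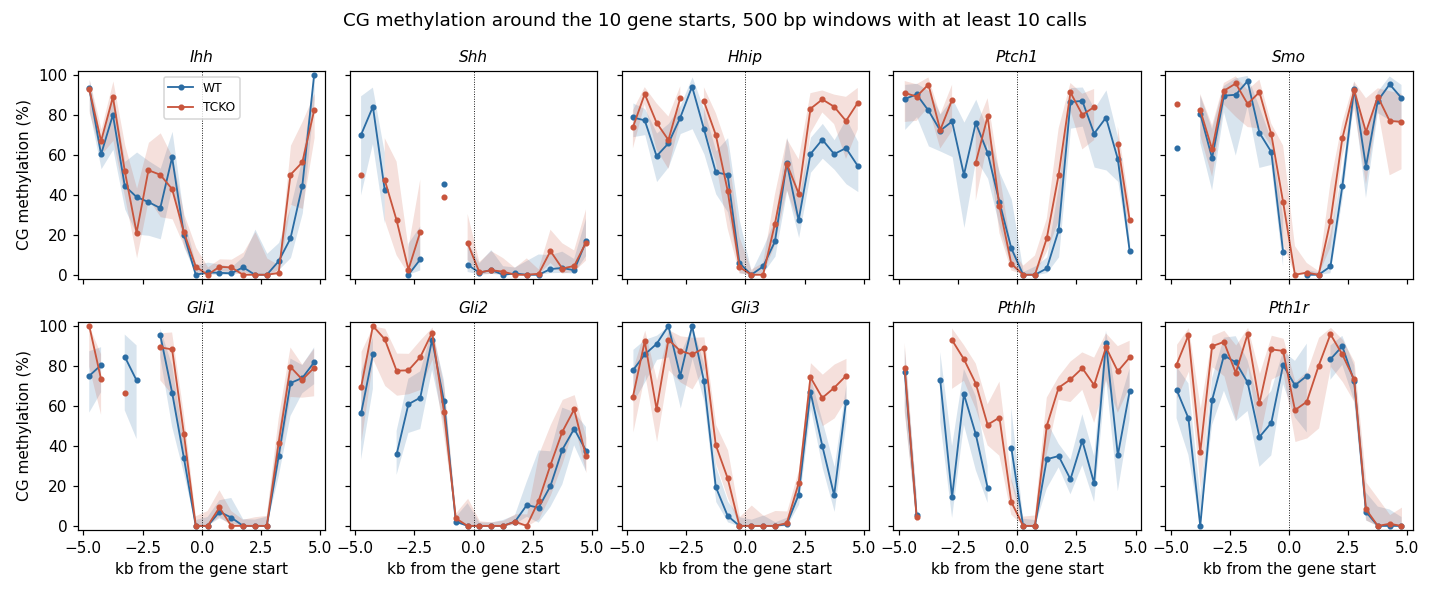
CG methylation (percent of calls, vertical axis) in 500 bp windows from 5 kb upstream to 5 kb downstream of each of the 10 starts (horizontal axis in kb, direction of transcription to the right), WT in blue and TCKO in red, with shaded 95% Wilson intervals; windows with under 10 calls are not drawn. A low valley sits at each start except that of Pth1r, whose valley lies more than 3 kb downstream, and at Pthlh the red line runs above the blue in most windows on both flanks of the valley.

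Gene bodies, from start to end of the gene record, were higher in TCKO at 4 of the 10 genes by the same rule, against 14.8% of 21599 genes, and lower at 0, against 0.732%. The median difference was 9.24 points for the 10 and 5.66 for all genes. Within cytosines the medians were 9.98 and 5.59, and 5 of the 10 reached 10 points, against 12.9% of all genes. A further 4 bodies passed the test with less than 10 points, and the share of all genes that did so was not counted.

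Pthlh rose from 49.9% of 1760 calls to 70.7% of 1544, by 20.7 points (17.4 to 23.9; Fisher exact test, adjusted p = 3.41e-33), and 17.4 points within cytosines. Smo rose from 61.0% to 77.0%, by 16.0 points (13.7 to 18.3), and 14.4 within cytosines, so that its body, unlike its start window, kept the difference. Pth1r rose from 58.7% to 70.7%, by 12.0 points (9.3 to 14.6), and Gli3 from 75.3% of 30580 calls to 86.4% of 25437, by 11.1 points (10.5 to 11.8). Gli2 rose by 9.26 points (71.9% to 81.1%), Ptch1 by 9.22 (53.5% to 62.7%) and Hhip by 9.17 (72.9% to 82.1%). Gli2 reached 10.3 points within cytosines. Shh rose from 11.2% to 15.0%, by 3.79 points (1.40 to 6.21; Fisher exact test, adjusted p = 0.0037).

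Ihh stood at 15.6% of 713 calls and 17.1% of 811 over its body, 1.57 points (-2.17 to 5.27), and Gli1 at 51.8% of 1792 and 52.9% of 1490, 1.10 points (-2.33 to 4.52). Ihh and Shh had the lowest body levels of the 10 in both libraries, and also thin coverage, with 1.29 and 1.67 calls per CG cytosine in WT against 7.36 at Hhip and 6.97 at Gli3. The part of depth in these values was not tested.

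Of 41 other genes of the pathway, 5 start windows were higher and 1 lower in TCKO by the rule, with a median difference of 3.93 points. Over all genes 23.6% were higher and 1.43% lower. Of the 8 target genes 0 were called higher or lower by this rule, and the same held for the 7 genes for ligand release and uptake. The 5 highest were Spopl, a ubiquitin ligase adaptor (14.3 points), Pth2r, a receptor related to Pth1r (13.6), Nkx3-2, a cartilage transcription factor (11.3), Sik3, a kinase downstream of PTHrP (10.6), and Cdon, a Hedgehog co-receptor (10.6). Within cytosines these were 1.86, 10.1, 7.43, 7.63 and 4.39 points, so only Pth2r of the 5 kept 10 points. In all, 4 of the 41 reached 10 points within cytosines, against 18.9% of all genes. The 3 lowest were Gpc3, an X-linked glypican (-19.4), Foxf1 (-9.95) and Gnas, an imprinted gene for a G protein subunit (-8.07). Within cytosines Gpc3 was at 1.55 points (-5.44 to 8.54), so its lower call did not hold, Foxf1 at -5.65 and Gnas at -6.28. At the principal transcript start of Gnas the pooled difference was -1.24 points.

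Over the nuclear chromosomes the libraries held 261062118 calls (WT) and 223581206 calls (TCKO), a median of 4 per covered CG cytosine in each, at 70.2% and 76.3% methylation. In each Tet gene a stretch was picked for low depth in TCKO relative to WT. These held 755 calls in WT and 70 in TCKO at Tet1, 122 and 13 at Tet2, and 133 and 9 at Tet3. Being chosen by that depth and not matched to the deleted exons, they do not check the genotype labels. Within 500 bp of the start, 3 of 6 osteoblast marker genes were below 20% in WT (Col1a1, Col1a2 and Runx2), 3 of 4 chondrocyte markers, 1 of 4 endothelial markers and 0 of 4 haematopoietic markers. Start methylation bears on cell type only loosely, and the part of cell composition in the differences was not tested.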

How the data were processed

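WGBS of primary osteoblasts was analysed from 1 WT and 1 TCKO library, grouped by their genotype labels. BSMAP 2.74 and the GRCm38 genome were used by the authors for alignment of the reads, of which those with a unique position were kept. They deposited, per CG position on either strand, the authors' count of methylated calls and count of total calls, neither normalized. CASAVA is also named in the submitters' processing notes. The removal of duplicate reads is not given in the sources used here.

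Gene models were GENCODE M21. Levels were methylated over all calls, pooled per region. Regions were compared with a Fisher exact test, 2-sided, with p-values adjusted by Benjamini-Hochberg over all genes or bins tested. The difference within cytosines was a Mantel-Haenszel difference over cytosines covered in both libraries, with Sato's 95% interval, added after a pooled difference was seen to exceed that of each of its parts. It has no adjusted p, and a gene was counted when it reached 10 points with an interval above 0. The 10 genes, the list of 41 further pathway genes and the marker lists were chosen with earlier results of these data known. Named were all 10 genes, of the 41 the 5 with the highest and 3 with the lowest start window difference, the Tet genes, and per gene the exon-free gain with the largest difference. The code was tested on simulated data. Other starts, windows, strands, coverage minima, depth limits, thresholds, bin grids and flanks were tried as alternatives. The other assays of the study were not analysed here. Computations used Python 3.11.15, numpy 2.4.6, pandas 2.3.3, numba 0.67.0 and matplotlib 3.10.9.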

Additional observations from a re-analysis of the deposited data

How the results depend on the processing

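With 1 library per genotype no library could be left out, and no paired analysis was possible because each group holds 1 sample. Of the 10 genes, 3 were called at the start, against 23.6% of all genes. The count was 0 with 500 bp on each side (7.74%), 1 with 1 kb upstream to 100 bp downstream (15.1%) and 1 within cytosines (18.9%). It was 2 at the principal transcript start (23.6%), where Gli3 stood at 8.12 points, and 1 with a minimum of 20 points. Gene bodies (4, against 14.8% of all genes) gave 1 with a minimum of 20 points and 8 with no minimum. The other pathway genes (5) gave 9 with cytosines of at least 4 calls (22.7% of all genes), 0 with a minimum of 20 points and 18 with none. For the changed minima the share over all genes was not counted. The gains (57, or 4.67% of testable bins, against 2.92% over the genome) gave 93 at 30 points (7.62% against 4.70%), 37 at 50 points (3.03% against 1.57%), 101 with at least 1 read per cytosine (3.70% against 2.65%), 6 with at least 10 (2.63% against 1.94%), 16 with at least 8 CG cytosines (4.89% against 3.29%) and 26 in bins of 1 kb, chosen after seeing the data (2.19% against 1.37%). With at least 10 reads Gli3 had 2 of 95 (2.11%). The 0 losses became 1 on the grid shifted by 100 bp. For the bins the alternatives' own construction changes what is tested or counted.

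Some start differences changed sign. With 500 bp on each side they were 0.77 points at Ihh, 3.47 at Shh, -2.49 at Pthlh, -1.89 at Pth1r and -0.065 at Cdon. With 1 kb upstream to 100 bp downstream they were 3.70 at Ihh, 7.07 at Shh, -2.77 at Hhip, -11.4 at Ptch1, -11.0 at Pthlh and -1.51 at Cdon. With cytosines of at least 4 calls they were 4.70 at Ihh, 0.25 at Shh and 1.99 at Foxf1. The plus strand gave 0.068 at Ihh and 0.93 at Shh, the minus strand -0.16 at Gli1 and -3.88 at Pth1r, and the principal start -0.25 at Ptch1. Within cytosines the differences were 2.23 at Ihh, 0.21 at Shh and 1.55 at Gpc3, and as the mean of cytosine levels 4.20 at Ihh and 0.93 at Shh. Gene bodies changed sign at Ihh without its first 2 kb (-0.80) and at Gli1 on the minus strand (-8.48). The cause was not tested. Sides of the test were read by the adjusted p alone, or within cytosines by whether the interval left out 0, without the minimum of 10 points. By that reading, and leaving out those that changed sign, 27 start differences lost the test and 2 passed it, as did 1 and 1 for bodies. The differences that changed sign were not sorted by side of the test. The mean of cytosine levels, which has no test, moved 5 start differences and 1 body difference by more than the counting error. The remaining 105 start and 65 body values kept their direction and side, except the sign at Shh given above.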
